A study of Mus musculus with 9 samples.

Results

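Receptors for monoamines and acetylcholine were examined in nuclear RNA of hippocampal neurons from WT mice, Tg4-42 mice and caffeine-treated Tg4-42 mice. The genes were taken by mouse symbol, as all dopamine (Drd), serotonin (Htr), muscarinic (Chrm), nicotinic (Chrn), adrenergic (Adra and Adrb) and histamine (Hrh) receptor genes in the exon count files, and no measured value entered the choice. This gave 53 of the 48709 genes listed. Of these, 35 encode G-protein-coupled receptors and 18 encode subunits of ligand-gated channels. Nuclei were isolated from frozen whole hippocampi, stained for the neuronal protein NeuN, sorted and sequenced. Each group had 3 libraries from mice at 6 months of age. The study's methods count 3 mice per group, whereas the extraction notes count 6, and whether a library pools nuclei of several mice is not given, so a mouse below stands for 1 library. WT mice were C57BL/6J mice that drank tap water, the vehicle. Tg4-42 mice, homozygous on the C57BL/6J background, express human Aβ4-42 fused to a signal peptide of thyrotropin-releasing hormone under the neuronal murine Thy1 promoter. They drank tap water or water with 300 mg/l caffeine, from 2 months of age and for 4 months. Caffeine-treated WT mice were not analysed here, so caffeine was compared within the Tg4-42 genotype.

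Dopamine, noradrenaline, serotonin, histamine and acetylcholine reach the hippocampus in long axons from cell bodies in the brainstem, hypothalamus and basal forebrain, and hippocampal neurons read them through the receptors they express themselves. Receptors coupled to Gs raise cyclic AMP, those coupled to Gi lower it and open potassium channels, and those coupled to Gq act through phospholipase C and calcium. Nicotinic and Htr3 subunits instead assemble in rings of subunits that open a cation channel when the transmitter binds. Caffeine itself blocks adenosine receptors, which are not members of these families.

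Exon counts per mouse ranged from 9342945 to 16376922, and the receptor genes together received 11512 to 19146 of these counts. A gene was taken as detected in a library at 3 or more counts, which corresponds to 0.183 to 0.321 CPM, read counts scaled to the library total (levels below use TMM-scaled totals). The limit covers counting error only. The labelled neuronal identity was checked by markers. Rbfox3, the gene of NeuN, lay at a mean of 106.8 to 134.8 CPM in the 3 groups, and the 3 endothelial markers summed to 0.325 to 1.29 CPM per library. Markers of other cells were counted too, with Mbp of oligodendrocytes at group means of 127 to 152 CPM. The series description names CA neurons, yet markers of dentate granule cells summed to 505 to 1227 CPM per library.

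Most receptor genes were expressed in these nuclei. In vehicle-treated WT mice, 42 of the 53 reached the detection limit in all 3 libraries, against 42 with vehicle and 41 with caffeine in Tg4-42 mice, and 40 did so in all 9 libraries. With a limit of 10 counts the numbers were 36, 39 and 36, and 34 in all 9 libraries. By contrast, 5 genes stayed below 3 counts in every library. Chrnd, the delta subunit of the muscle receptor, had 0 counts throughout, and Chrng, Drd3, Hrh4 and Htr3b never exceeded 1 count, so their presence was not detectable at this depth. A further 9 genes had counts but did not pass the filter on low counts. These were Adra2b, Chrna6, Chrna9, Chrna10, Chrnb4, Chrne, Drd2, Drd4 and Htr1d. The other 39 genes were tested between groups.

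Levels of different genes were compared as CPM per kb of annotated exon, the scale on which they are plotted by family. Chrm1, a Gq-coupled muscarinic receptor of pyramidal cells, stood far above all others, with 67.7 ± 8.11 CPM per kb (SD, n = 3) in vehicle-treated WT mice. On its own it held between 33.4% and 42.4% of the summed receptor CPM of a library. Htr3a, the subunit that every serotonin-gated channel needs and that marks a class of interneurons, came next with 18.1 ± 1.51 CPM per kb (SD, n = 3). Htr1a followed with 13.6 ± 2.10, Htr5b with 12.7 ± 2.74, Drd1 with 12.4 ± 2.13, Chrna4 with 10.1 ± 2.12 and Hrh3 with 9.68 ± 2.90 CPM per kb (SD, n = 3 each). From Htr1a to Hrh3, neighbours in this order differed by less than the sum of their SDs, so their order is not resolved. Below them, the highest members of the remaining families were Adrb1 with 4.67 ± 2.35, Adra1d with 3.79 ± 0.719 and Chrnb1 with 0.768 ± 0.0553 CPM per kb (SD, n = 3 each). Long untranslated exons lower a value per kb, and how the reads cover each transcript is not given by counts.

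**Figure D1:**
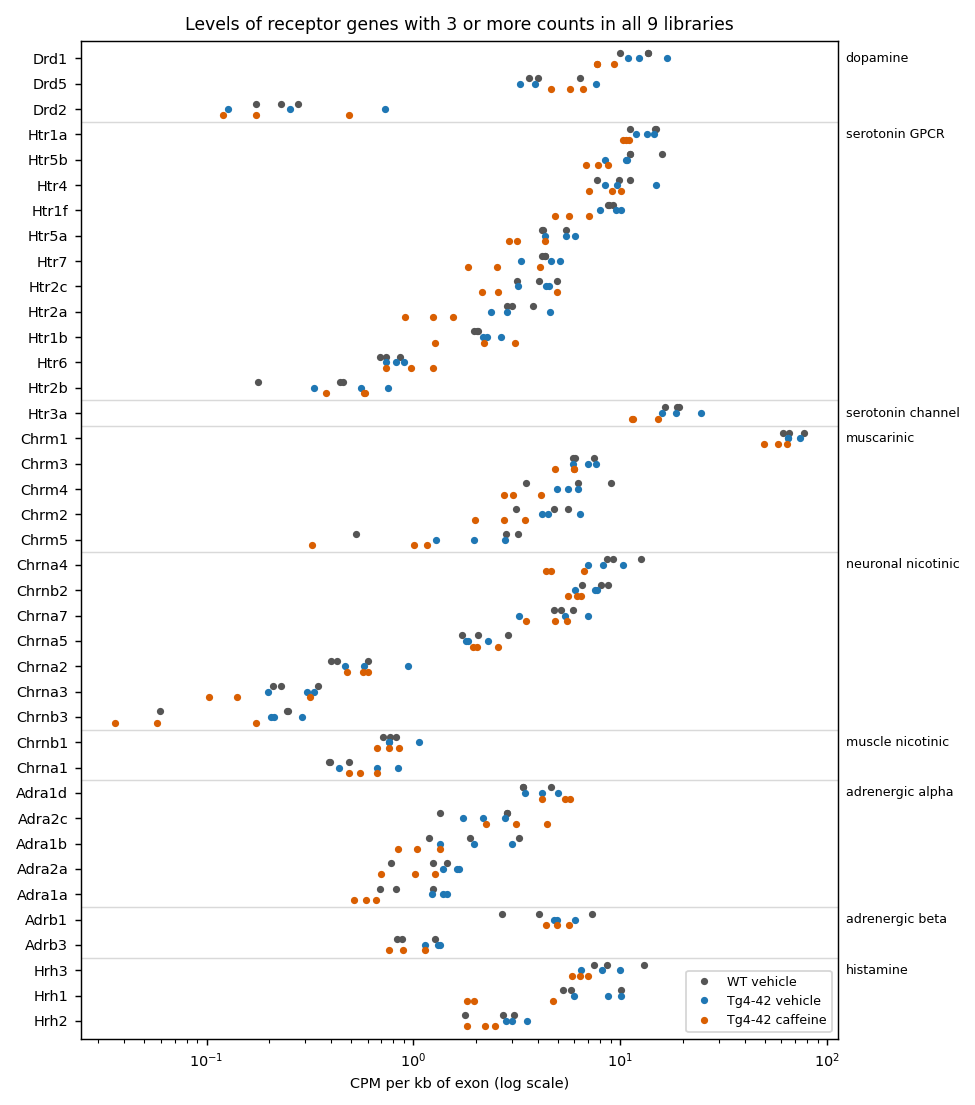
Level of 39 of the 40 receptor genes with 3 or more counts in all 9 libraries, in CPM per kb of annotated exon on a log axis, with 1 point per mouse and the 3 groups in different colours. Genes are ordered by family and by their mean in vehicle-treated WT mice, and Chrm1 lies alone at the right while Drd2, Chrna3 and Chrnb3 lie at the left.

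Within families the levels were uneven. Among dopamine receptors, the Gs-coupled Drd1 and Drd5 were tested, whereas the Gi-coupled Drd2 had 3 to 29 counts, Drd4 2 to 12 counts and Drd3 at most 1 count per library. Among nicotinic subunits, Chrna4 and Chrnb2, which together form the main high-affinity receptor of the brain, and Chrna7, which forms channels on its own, lay at 10.1, 7.79 and 5.27 CPM per kb in vehicle-treated WT mice. The subunits known from ganglia and the habenula lay far lower, with Chrna3 at 0.260 CPM per kb and Chrnb4 at 0 to 6 counts per library. Among the 5 subunits of the muscle receptor, Chrna1 and Chrnb1 passed the filter, with 1.71 to 3.69 and 1.69 to 2.71 CPM.

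The first comparison asked whether the transgene altered these receptors. Between vehicle-treated Tg4-42 and WT mice, 0 of the 39 tested receptor genes were called at an adjusted p under 0.05 (edgeR's quasi-likelihood test, adjusted over all tested genes), where 0.0979% of all 17361 tested genes were called. The alternative tests with DESeq2 and limma-voom also called 0. At an unadjusted p under 0.05 there was 1 receptor gene, or 2.56%, against 2.74% of all genes. The estimate was above 0 for 27 of the 39, against 50.5% of all genes, with a median log2 fold change of 0.10 against 0.00 over all genes. Standard errors of the single log2 fold changes lay between 0.13 for Htr1a and 0.55 for Chrm5 among the genes plotted, so small changes were not detectable.

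The gene at an unadjusted p under 0.05 was Adra1a, a Gq-coupled receptor for noradrenaline on chromosome 14 of mm10 (66635251 to 66771168, plus strand). It measured 10.9, 6.00 and 7.18 CPM in the 3 WT mice and 12.7, 10.8 and 12.1 CPM in the 3 vehicle-treated Tg4-42 mice. The groups overlapped, since the highest WT mouse lay just above the lowest Tg4-42 mouse, and the log2 fold change was 0.57 (standard error, SE, 0.23 and adjusted p 1.00). Chrm1 had 397, 498 and 423 CPM in WT mice and 480, 419 and 418 CPM in vehicle-treated Tg4-42 mice, with a log2 fold change of 0.00 (SE 0.14).

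The second comparison asked how caffeine-treated Tg4-42 mice differed from vehicle-treated ones, and here most receptor estimates were lower with caffeine. Htr2a and Adra1a were called, both lower, which is 2 of 39 receptor genes where 0.881% of all tested genes were called in either direction. Of the 39 estimates, 34 were below 0, against 51.5% of all tested genes, and the median log2 fold change was -0.35 against -0.01. At an unadjusted p under 0.05 there were 16 receptor genes, or 41.0%, against 17.0% of all genes, and all 16 were lower with caffeine. For 16 receptor genes the 3 caffeine-treated mice all lay below the 3 vehicle-treated Tg4-42 mice, against 12.6% of all genes. For 0 receptor genes all lay above, against 1800 of the 17361 tested genes. The families were described with no test of the list, and genes of a list are not independent replicates.

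**Figure D2:**
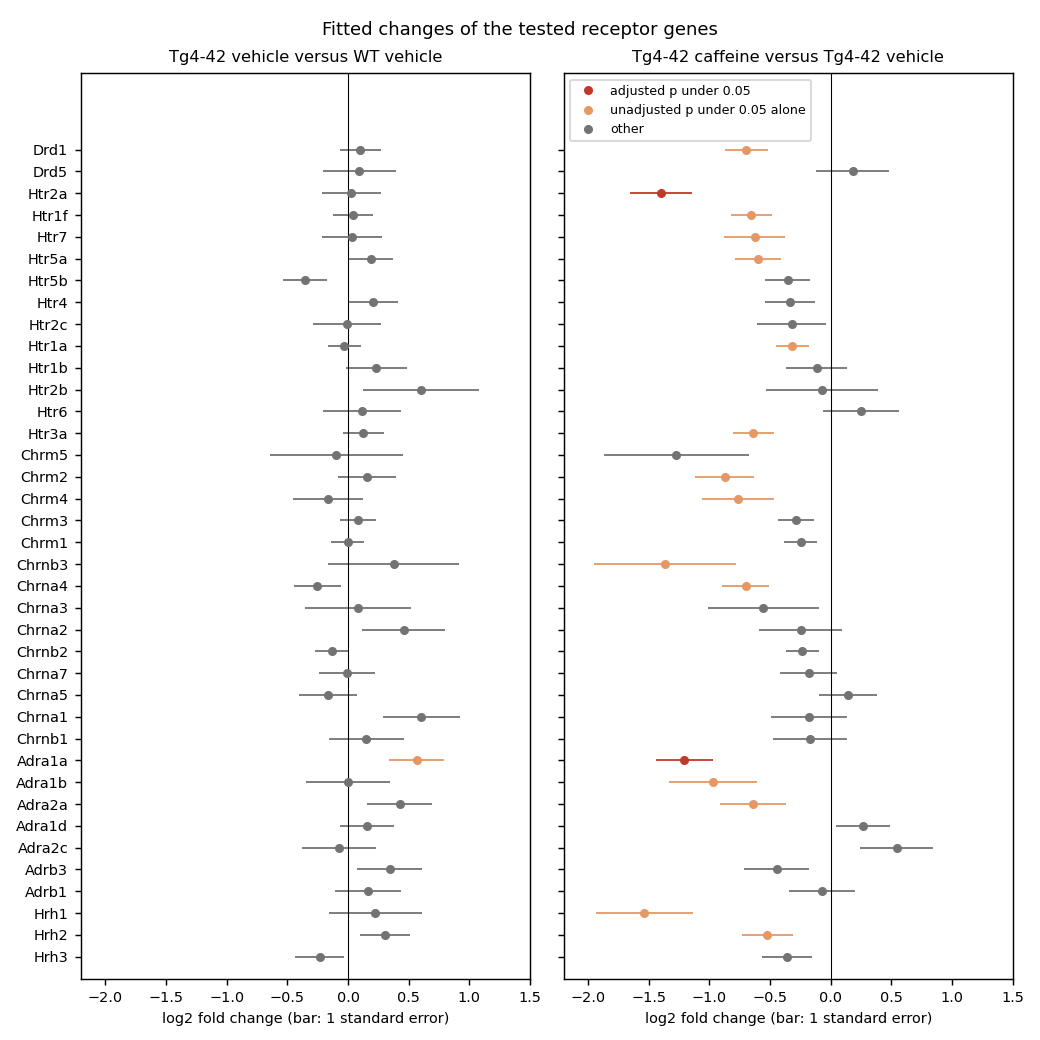
Fitted log2 fold change of 38 of the 39 tested receptor genes, with a bar of 1 SE, for vehicle-treated Tg4-42 versus WT mice (left) and for caffeine-treated versus vehicle-treated Tg4-42 mice (right). Colours mark the adjusted and unadjusted p, and 33 of 38 points lie left of 0 on the right side, with Htr2a and Adra1a called.

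The same was seen in the summed level. All receptor genes together made up 0.111% to 0.118% of the counts of WT mice, 0.114% to 0.123% in Tg4-42 mice on vehicle and 0.0921% to 0.0980% in those on caffeine. The 3 caffeine-treated mice lay below the other 6. Without Chrm1 the summed level was 705 to 778 CPM in WT mice, 675 to 833 CPM in Tg4-42 mice on vehicle and 511 to 572 CPM on caffeine, so the difference did not rest on the highest gene. In these bulk samples, fewer cells of a type and less RNA of a gene per cell cannot be told apart.

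Among serotonin receptors, Htr2a, the Gq-coupled receptor through which classical hallucinogens act, showed the lowest estimate. It lies on chromosome 14 of mm10 (74640840 to 74709494, plus strand) and measured 21.3, 15.8 and 16.7 CPM in WT mice, 15.8, 13.4 and 25.6 CPM in vehicle-treated and 8.67, 6.98 and 5.07 CPM in caffeine-treated Tg4-42 mice. The 3 caffeine-treated mice lay below all 6 others. Caffeine-treated mice differed from vehicle-treated Tg4-42 mice by a log2 fold change of -1.40 (SE 0.26, adjusted p 0.0385), which is 62.1% lower. The adjusted p passed the threshold narrowly. It was 0.0554 with the sequencing lane as a covariate, and the call was lost when vehicle-treated replicate 1 or 3 or caffeine-treated replicate 2 or 3 was left out, with log2 fold changes from -1.59 to -1.05 over all 6 such fits.

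A further 5 serotonin receptor genes had estimates below 0 and an unadjusted p under 0.05 without being called by edgeR. DESeq2 called Htr1f and Htr3a among them, and limma-voom called Htr1f. Both tools called more of all genes in this comparison, 747 with DESeq2 and 587 with limma-voom against 153 with edgeR. Htr1a, the Gi-coupled receptor that silences pyramidal cells, measured 53.2, 64.9 and 60.4 CPM in vehicle-treated and 47.9, 49.6 and 46.1 CPM in caffeine-treated Tg4-42 mice, against 66.6, 66.0 and 50.0 CPM in WT mice. Its caffeine-treated mice lay closely together and below the other 6, with a log2 fold change of -0.32 (SE 0.13, adjusted p 0.247). Htr1f, also coupled to Gi, had 22.4, 23.8 and 22.8 CPM in WT mice, 24.6, 20.6 and 26.1 CPM in vehicle-treated and 18.2, 14.5 and 12.5 CPM in caffeine-treated Tg4-42 mice (log2 fold change -0.65, SE 0.17, adjusted p 0.0765).

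Htr3a measured 39.2, 39.9 and 34.1 CPM in WT mice, 33.1, 38.9 and 51.2 CPM in vehicle-treated and 24.0, 31.6 and 23.7 CPM in caffeine-treated Tg4-42 mice (log2 fold change -0.64, SE 0.17, adjusted p 0.0862). Again the caffeine-treated mice lay below all others. Htr5a, a Gi-coupled receptor, had 22.7, 22.6 and 29.3 CPM in WT mice, 29.4, 23.2 and 32.4 CPM in vehicle-treated and 23.3, 17.1 and 15.6 CPM in caffeine-treated Tg4-42 mice. Htr7, coupled to Gs, had 14.7, 14.7 and 14.2 CPM in WT mice, 11.3, 15.7 and 17.4 CPM in vehicle-treated and 6.25, 14.0 and 8.61 CPM in caffeine-treated Tg4-42 mice. For both, 1 caffeine-treated mouse reached into the range of the vehicle-treated mice, with log2 fold changes of -0.60 and -0.63 (adjusted p 0.123 and 0.217). The remaining 6 G-protein-coupled serotonin receptors that were tested had estimates between -0.35 for Htr5b and 0.25 for Htr6, which was the single one above 0.

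Among adrenergic receptors, estimates lay on both sides of 0. Adra1a measured 5.73, 4.49 and 5.15 CPM in caffeine-treated Tg4-42 mice, below each of the WT and vehicle-treated Tg4-42 mice given above. Its log2 fold change against vehicle was -1.21 (SE 0.24, adjusted p 0.0399), or 56.7% lower. As for Htr2a, the call was lost with the lane covariate (adjusted p 0.0582) and without vehicle-treated replicate 1 or 3 or caffeine-treated replicate 2 or 3. Over all 6 fits with a mouse left out, the log2 fold change was -1.30 to -1.12.

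Adra1b, its Gq-coupled relative, had 6.35, 4.04 and 10.99 CPM in WT mice, 4.55, 6.61 and 10.1 CPM in vehicle-treated and 4.56, 2.83 and 3.54 CPM in caffeine-treated Tg4-42 mice, so that the groups touched (log2 fold change -0.97, SE 0.36, adjusted p 0.194). Adra2a, the Gi-coupled autoreceptor and heteroreceptor, had 3.77, 6.00 and 6.98 CPM in WT mice, 6.71, 7.83 and 8.03 CPM in vehicle-treated and 4.93, 6.15 and 3.38 CPM in caffeine-treated Tg4-42 mice (log2 fold change -0.64, SE 0.27, adjusted p 0.243). With caffeine it was below vehicle-treated Tg4-42 mice and overlapped the WT mice, with 1 caffeine-treated mouse below all 3 of them. Adra1d measured 6.43, 8.78 and 6.40 CPM in WT mice, 6.60, 7.96 and 9.48 CPM in vehicle-treated and 7.94, 10.8 and 10.3 CPM in caffeine-treated Tg4-42 mice, with an estimate above 0 (0.27, SE 0.22). Together with Adra2c (0.54, SE 0.30) it was among the 5 receptor genes whose estimate was above 0, and neither passed the test. The Gs-coupled Adrb1, at 9.10, 13.7 and 24.6 CPM in WT mice, 16.2, 16.6 and 20.4 CPM in vehicle-treated and 19.0, 14.9 and 16.8 CPM in caffeine-treated Tg4-42 mice, had an estimate of -0.07 (SE 0.27).

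**Figure D3:**
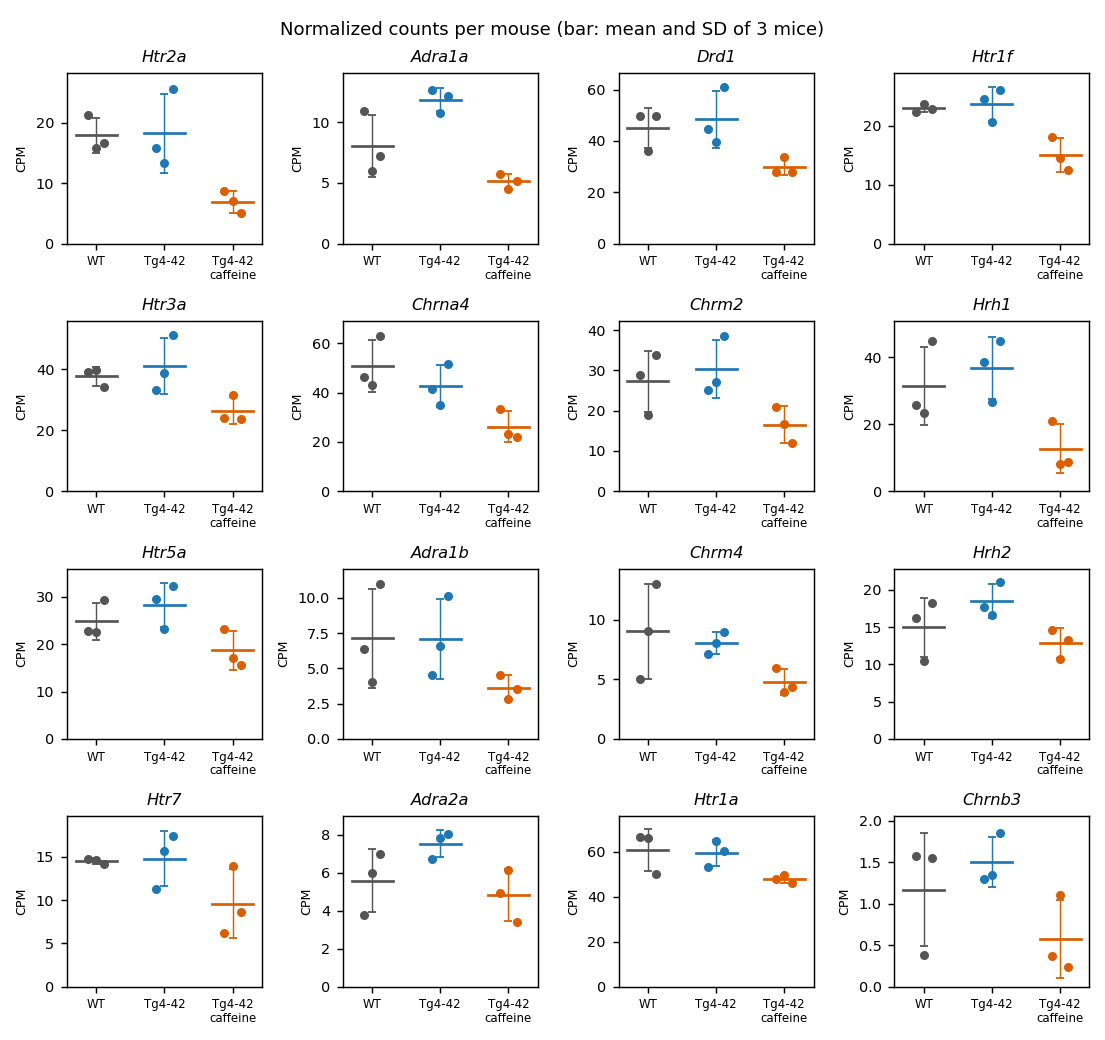
CPM per mouse of the 16 receptor genes with an unadjusted p under 0.05 between caffeine-treated and vehicle-treated Tg4-42 mice, ordered by p. Points are mice, horizontal bars are group means and vertical bars are the SD of 3 mice, and each axis starts at 0. In all 16 the mean with caffeine is the lowest of the 3 groups, although for Chrnb3, Hrh2, Adra2a and others single WT mice lie as low.

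All 3 tested histamine receptors had estimates below 0. Hrh1, coupled to Gq, measured 25.8, 23.5 and 44.7 CPM in WT mice, 38.7, 26.7 and 44.8 CPM in vehicle-treated and 21.1, 8.09 and 8.76 CPM in caffeine-treated Tg4-42 mice. Its estimate was the most negative of the 39, at -1.54, but replicate 1 with caffeine lay well above the other two, the SE was 0.40 and the adjusted p was 0.109. DESeq2 and limma-voom called Hrh1. Hrh2, coupled to Gs, had 16.2, 10.5 and 18.2 CPM in WT mice, 17.7, 16.7 and 21.04 CPM in vehicle-treated and 14.6, 10.7 and 13.2 CPM in caffeine-treated Tg4-42 mice (log2 fold change -0.52, SE 0.21, adjusted p 0.217). Hrh3, the Gi-coupled receptor found largely at presynaptic sites, had 23.4, 27.2 and 40.7 CPM in WT mice, 20.3, 25.7 and 31.5 CPM in vehicle-treated and 18.4, 22.1 and 20.1 CPM in caffeine-treated Tg4-42 mice. The Tg4-42 groups overlapped (-0.36, SE 0.21), whereas the caffeine-treated mice lay below all WT mice.

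All 5 muscarinic receptors likewise had estimates below 0. With edgeR 0 of them were called and 2 had an unadjusted p under 0.05, and Chrm2 was called by both DESeq2 and limma-voom. Chrm2, the Gi-coupled receptor known from interneurons and cholinergic terminals, measured 28.9, 19.0 and 33.9 CPM in WT mice, 25.2, 27.1 and 38.5 CPM in vehicle-treated and 21.02, 16.6 and 11.99 CPM in caffeine-treated Tg4-42 mice (log2 fold change -0.87, SE 0.24, adjusted p 0.0996). Chrm4, also Gi-coupled, had 5.02, 9.03 and 13.0 CPM in WT mice, 7.14, 8.02 and 8.99 CPM in vehicle-treated and 5.95, 3.94 and 4.38 CPM in caffeine-treated Tg4-42 mice (-0.76, SE 0.30, adjusted p 0.207). For both genes the caffeine-treated mice lay below all vehicle-treated Tg4-42 mice and overlapped the WT mice. Chrm1 had 416, 320 and 374 CPM with caffeine, just below the 3 vehicle-treated Tg4-42 mice, with a log2 fold change of -0.25 (SE 0.14, adjusted p 0.377). The Gq-coupled Chrm3 and Chrm5 had estimates of -0.29 and -1.27, the latter with an SE of 0.60.

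Among dopamine receptors, Drd1 measured 49.6, 36.2 and 49.6 CPM in WT mice, 44.7, 39.7 and 60.9 CPM in vehicle-treated and 27.9, 33.7 and 28.1 CPM in caffeine-treated Tg4-42 mice. The caffeine-treated mice lay below all 6 others, and the log2 fold change of -0.69 (SE 0.17, adjusted p 0.0713) did not pass with edgeR, whereas DESeq2 and limma-voom called Drd1. Drd5, the other Gs-coupled dopamine receptor, had an estimate of 0.18 (SE 0.30), and 48.6% of its exon length overlaps a gene on the opposite strand.

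Of the neuronal nicotinic subunits, 2 of 7 tested had an unadjusted p under 0.05. Chrna4 lies on chromosome 2 of mm10 (181018380 to 181043546, minus strand) and measured 46.3, 43.2 and 63.0 CPM in WT mice, 41.3, 35.0 and 51.8 CPM in vehicle-treated and 33.5, 23.3 and 21.9 CPM in caffeine-treated Tg4-42 mice. The caffeine-treated mice lay below all others, with a log2 fold change of -0.70 against vehicle-treated Tg4-42 mice (SE 0.20, adjusted p 0.0977). It was not called by edgeR in this comparison but was by DESeq2 and limma-voom. Chrnb3, a rare accessory subunit, had 1.57, 0.379 and 1.55 CPM in WT mice, 1.30, 1.35 and 1.85 CPM in vehicle-treated and 0.368, 1.11 and 0.231 CPM in caffeine-treated Tg4-42 mice (-1.36, SE 0.59, adjusted p 0.252), values close to the detection limit. The other 5 neuronal subunits that were tested lay between -0.55 for Chrna3 and 0.14 for Chrna5. Chrnb1 of the muscle receptor had 1.80, 2.08 and 1.94 CPM in WT mice, 2.71, 1.93 and 1.93 CPM in vehicle-treated and 1.69, 2.14 and 1.92 CPM in caffeine-treated Tg4-42 mice, with overlapping groups.

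Grouped by signalling, the median log2 fold change with caffeine was -0.65 over the 10 tested Gq-coupled receptors, -0.48 over the 10 Gi-coupled ones, -0.33 over the 9 Gs-coupled ones and -0.24 over the 10 channel subunits. This grouping was made with the values known, and its differences were not tested.

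Caffeine-treated Tg4-42 mice were also compared with vehicle-treated WT mice. This comparison uses the same caffeine libraries and is no independent repeat. Here Htr2a and Chrna4 were called, both lower, or 2 of 39 where 0.415% of all tested genes were called. An unadjusted p under 0.05 was found for 17 receptor genes, all lower, against 15.4% of all genes. The estimate was below 0 for 29 of 39, against 51.5%, and for 12 the caffeine-treated mice lay below all 3 WT mice, against 9.67%. For Chrna1 alone they lay above them, against 1587 of the 17361 tested genes. Htr2a had a log2 fold change of -1.37 (SE 0.25, adjusted p 0.0297) and Chrna4 of -0.95 (SE 0.20, adjusted p 0.0482). The Chrna4 call was lost with the lane covariate (adjusted p 0.0620) and with an exon length correction (adjusted p 0.0529). When any of the compared libraries other than caffeine-treated replicate 1 was left out, 0 receptor genes were called by edgeR, with log2 fold changes over the 6 fits of -1.57 to -1.19 for Htr2a and -1.17 to -0.77 for Chrna4. Adra1a, which was called against vehicle-treated Tg4-42 mice, was 35.9% lower than in WT mice (log2 fold change -0.64, SE 0.24, adjusted p 0.209).

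Sequences upstream of transcript starts of the 2 genes called against WT mice, Htr2a and Chrna4, are shown because both were lower with caffeine in that comparison. They were taken from RefSeq promoter windows on GRCm38.p6, which held 40 of the 53 receptor genes and no window for Adra1a. Each begins 250 bases upstream of a RefSeq transcript start and stops before the next GENCODE exon base downstream. Neither stretch therefore reaches its RefSeq start. The Htr2a stretch ends at the start of the annotated gene, whereas the Chrna4 stretch lies inside the annotated gene, in an intron of a transcript that starts further upstream. Capitals mark the GC box GGGCGG or its reverse complement, a motif bound by Sp-family factors.
Htr2a, chr14:74640624-74640839, plus strand: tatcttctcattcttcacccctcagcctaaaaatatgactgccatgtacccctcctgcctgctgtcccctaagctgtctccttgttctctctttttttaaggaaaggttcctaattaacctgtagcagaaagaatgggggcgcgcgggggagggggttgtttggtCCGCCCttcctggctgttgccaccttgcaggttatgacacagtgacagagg
Chrna4, chr2:181039306-181039427, minus strand: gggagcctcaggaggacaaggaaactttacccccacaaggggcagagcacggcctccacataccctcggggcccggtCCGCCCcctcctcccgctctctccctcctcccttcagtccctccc
The Htr2a stretch of 216 bases had 51.4% G and C and the Chrna4 stretch of 122 bases had 68.0%. Over the 250 bases upstream of each start and on both strands, a GC box was present in 22 of the 40 receptor genes with a window and in 10 of the 13 with a window among the 16 at an unadjusted p under 0.05, against 32.7% of all 32851 windows. The CRE core TGACG was present in 6 of 40 and 2 of 13, against 17.8% of windows, the TATA box TATAAA in 2 of 40, against 12.4%, and the RE1 stretch TTCAGCACC in 0 of 40, against 0.301%. A gene can have several windows, so the shares are not on an equal footing, and a match is no evidence of binding.

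Genes acting before and after the receptors were described next, for caffeine-treated versus vehicle-treated Tg4-42 mice. Over all tested genes in this comparison, 0.881% were called, 17.0% had an unadjusted p under 0.05 and 51.5% had estimates below 0. Of 23 genes for synthesis, transport and breakdown of the transmitters, 16 were tested, 0 were called, 3 had an unadjusted p under 0.05 and 12 had estimates below 0. DESeq2 called Ache and limma-voom 0 of them. The smallest p values belonged to Ache, which breaks down acetylcholine (-0.45, SE 0.13, adjusted p 0.104), Hnmt, which inactivates histamine (-0.37, adjusted p 0.198), and Maob, which oxidizes monoamines (-0.71, adjusted p 0.264). Slc6a4, the serotonin transporter of raphe neurons, had 0 counts in all libraries, and Slc6a2, the noradrenaline transporter, had a mean of 0.0461 CPM with caffeine and 0 in both vehicle groups. Both transporters were picked with their values known.

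Of the 12 G protein alpha subunits, all tested, 0 were called by edgeR, DESeq2 or limma-voom. At an unadjusted p under 0.05 there was 1, or 8.33% against 17.0% of all genes, and 9 had estimates above 0. The smallest p values belonged to Gnaq, the subunit of Gq-coupled receptors (0.34, SE 0.13, adjusted p 0.188), Gna12 (0.37, adjusted p 0.378) and Gna11 (0.21, adjusted p 0.420). Of 13 receptor kinases, arrestins and scaffolds, edgeR called 0, 1 (7.69%) had an unadjusted p under 0.05 and 7 had estimates above 0. Arrb2, an arrestin that ends receptor signalling, had the smallest p (0.66, SE 0.16, adjusted p 0.0600) and was called, higher, by DESeq2 and limma-voom, followed by Grk2 (0.36, adjusted p 0.336) and Grk4 (0.53, adjusted p 0.366). Of 11 RGS proteins, which switch G proteins off, edgeR called 0. An unadjusted p under 0.05 was found for 4 of them, or 36.4% against 17.0% of all genes. Estimates below 0 were found for 8, or 72.7% against 51.5%. The smallest p values belonged to Rgs20 at -1.12 (SE 0.28, adjusted p 0.0688), Rgs12 at -0.60 (adjusted p 0.128) and Rgs9 at -0.36 (adjusted p 0.205). Rgs20 was called by DESeq2 and limma-voom.

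Partners of nicotinic receptors were described as a further list. Of 9 chaperones and Ly6 proteins, 0 were called by edgeR, 5 by DESeq2 and 3 by limma-voom, 7 had estimates below 0 and 6 had an unadjusted p under 0.05, all lower, against 17.0% of all genes. Lypd6, a Ly6 protein, had a mean of 27.6 CPM in vehicle-treated and 14.3 CPM in caffeine-treated Tg4-42 mice (-0.94, SE 0.22, adjusted p 0.0559). Tmem35a, a chaperone of nicotinic receptors also known as NACHO, had -0.43 (SE 0.12, adjusted p 0.0922) and Lynx1, which dampens them, -0.39 (SE 0.11, adjusted p 0.106).

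Markers of cell types differed between the same groups, where 0.881% of all tested genes were called and 51.5% had estimates below 0. All 10 markers of dentate granule cells had estimates above 0 with caffeine, with Plk5 (1.52, adjusted p 0.0385) and Stxbp6 (0.81, adjusted p 0.0399) called, and they summed to 606 to 840 CPM in WT mice, 505 to 800 CPM in vehicle-treated and 981 to 1227 CPM in caffeine-treated Tg4-42 mice. All 8 CA2 and CA3 markers were also above 0, but 1 (12.5%) had an unadjusted p under 0.05, against 17.0% of all genes. EdgeR and limma-voom called 0 of the 8, and DESeq2 called 1. Their sums overlapped, with 281 to 341 CPM with vehicle and 325 to 397 CPM with caffeine in Tg4-42 mice. In contrast, 6 of 7 CA1 markers were below 0, 3 of them at an unadjusted p under 0.05. The remaining CA1 marker was above 0, also at an unadjusted p under 0.05. EdgeR called 0 of the 7, and DESeq2 and limma-voom called 2 each. The CA1 markers summed to 713 to 856 CPM with vehicle and 517 to 622 CPM with caffeine.

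Among 10 interneuron markers, 9 were below 0 and Slc32a1, the vesicular GABA transporter, was called (-0.93, SE 0.20, adjusted p 0.0462). Their sum was 1363 to 1923 CPM in vehicle-treated and 1090 to 1333 CPM in caffeine-treated Tg4-42 mice, against 1324 to 1501 CPM in WT mice. Of the subiculum and neocortex markers, 8 of 10 were below 0, with sums of 364 to 539 CPM with vehicle and 238 to 349 CPM with caffeine.

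Markers of glia were lower as well, with 5 of 5 oligodendrocyte, 4 of 5 astrocyte and 5 of 5 microglial estimates below 0. Of these 15 genes, edgeR called 0, DESeq2 called 3 and limma-voom 7. An unadjusted p under 0.05 was found for 7 of the 15, against 17.0% of all genes. Their sums with vehicle and caffeine in Tg4-42 mice were 330 to 461 and 227 to 332 CPM for oligodendrocytes, 87.7 to 98.2 and 64.8 to 82.5 CPM for astrocytes, and 22.2 to 28.7 and 15.2 to 19.9 CPM for microglia. Of 5 neuronal markers, 2 were above and 3 below 0, with 1 in each direction at an unadjusted p under 0.05. EdgeR called 0 of the 5, and DESeq2 and limma-voom each called the same 1, which was lower. For the striatum 3 of 4 tested markers, for thalamus and habenula 3 of 4, and for choroid plexus and ependyma 4 of 5 were below 0, and the endothelial markers were not tested. Ppp1r1b and Rgs9 of the striatal list and Rgs14 of the CA2 list also stand in the signalling lists. The part of these shifts in the receptor results was not tested.

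**Figure D4:**
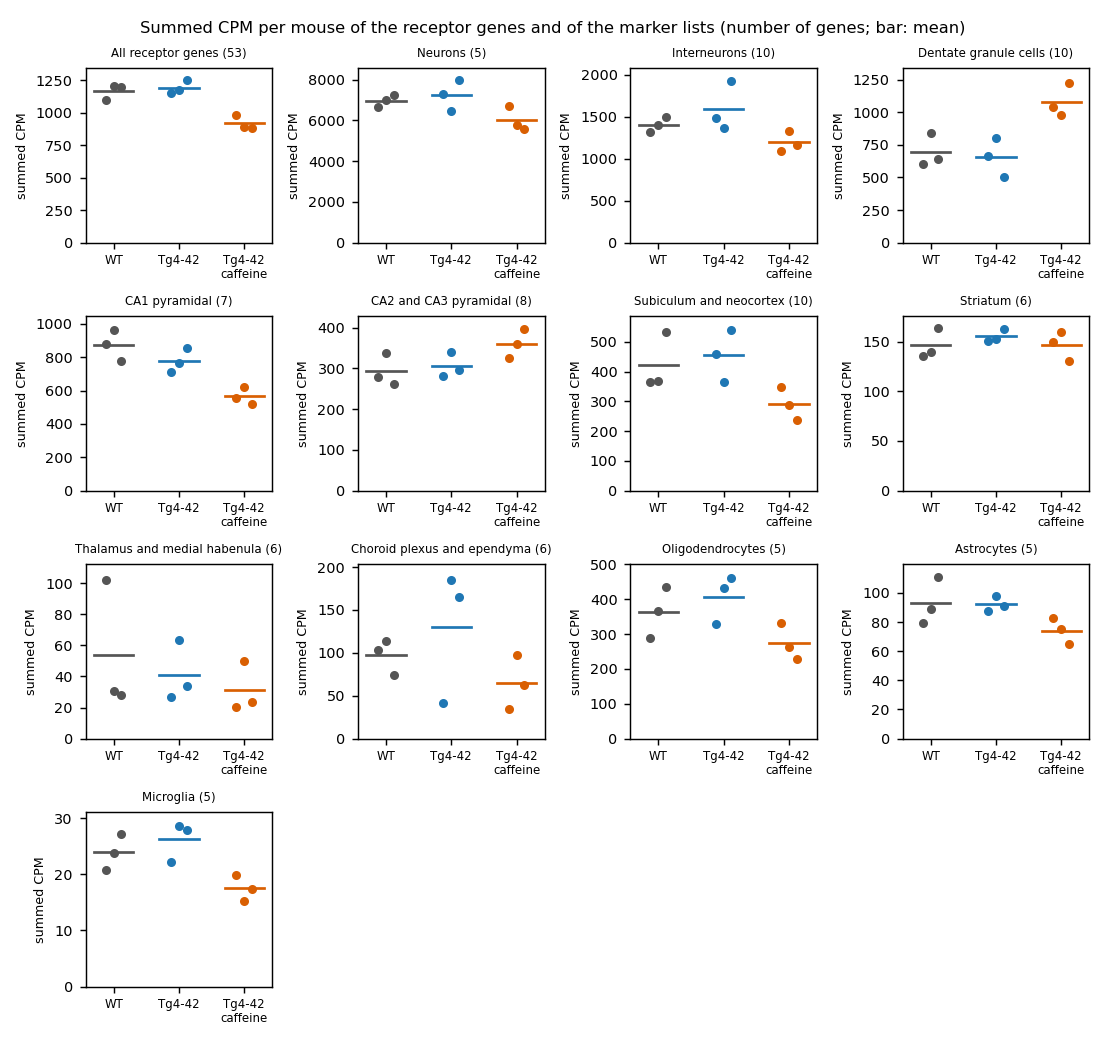
Summed CPM per mouse of all 53 receptor genes and of each marker list, with the number of genes in brackets, points for mice, bars for group means and axes from 0. With caffeine the receptor sum (885 to 981 CPM) lies below both vehicle groups while the dentate granule cell sum (981 to 1227 CPM) lies above them.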

How the data were processed

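The authors sorted NeuN-stained nuclei of frozen hippocampi, made libraries with SMART-Seq and Nextera chemistry, aligned single-end reads of 50 bases to mm10 with STAR and counted them on exons with featureCounts. Tool versions and the strand setting are not given in the sources used here. They deposited raw counts per gene for 9 mice. The labels give the treatment for the caffeine group alone, and the vehicle groups follow from genotype and the study's design. Symbols and positions came from GENCODE M21. Genes were filtered with filterByExpr (minimum count 10, total 15), scaled by TMM and tested with edgeR 4.0.16 in R 4.3.3 (quasi-likelihood F test, robust, 1 model of 3 groups), with Benjamini-Hochberg adjustment over 17361 genes and a threshold of 0.05. The standard error was the estimate divided by the root of F. The method was also run on simulated counts, drawn independently from the fitted spread with no lane effect. That run does not cover how calls depend on the lane or on single libraries. Alternatives were DESeq2 1.42.0, limma-voom (limma 3.58.1), other scalings, filters and covariates, and each mouse left out.

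Values per mouse are given for receptor genes with an adjusted p under 0.05 in any comparison, for those with an unadjusted p under 0.05 for caffeine or genotype, and for the highest gene per kb of each family. From other lists, called genes or the 3 with the smallest p are named. Members were set by symbol alone, but earlier results of these data were known when members, lists and motifs were chosen. Replicate 3 of each group was sequenced on lane 7, the others on lane 6. The labels do not say how the mice relate to litters or days, so neither was modelled. The p-values weigh a group difference against the spread between these libraries, estimated with information shared over genes. The counts cannot be split by strand here, so receptor genes whose exons overlap a gene on the opposite strand are uncertain: Drd5 (48.6% of exon length), Chrna10 (39.0%), Adrb3 (24.9%), Htr1b (18.0%), Chrnb2 (16.3%), Htr2b (11.8%), Hrh3 (11.1%), Adra1d (7.74%), Chrm1 (5.07%), Hrh2 (2.44%) and Chrm2 (2.35%). The values of 1 receptor gene and of 1 marker gene are counted in the totals and are not reported here.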

Additional observations from a re-analysis of the deposited data

How the results depend on the processing

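Between vehicle-treated Tg4-42 and WT mice, 0 receptor genes were called under all 17 alternatives. For caffeine-treated versus vehicle-treated Tg4-42 mice, the 2 called receptor genes became 13 without the filter on low counts, 8 with DESeq2, 7 with limma-voom and 0 with the sequencing lane as a covariate, and with each mouse left out 0 to 5 were called (5 without caffeine-treated replicate 1, 3 without vehicle-treated replicate 2, 0 without any of the others). For caffeine-treated Tg4-42 versus WT mice, the 2 became 11 without the filter, 5 with DESeq2, 1 with the lane and 1 with an exon length correction (both without Chrna4), and 0 to 4 with each mouse left out (4 without caffeine-treated replicate 1, 0 otherwise). The cause was not tested. Scaling, GC content correction, the filter at a mean of 50 counts, the 2 groups alone and the edgeR version 4 method left both counts at 2. Single-gene results were followed only for receptor genes with an unadjusted p under 0.05 in the main fit, so changes of direction were unlikely beforehand. Of these results, 516 stayed on their side of the threshold, 37 passed it, 22 lost it and 0 changed direction. Against vehicle, Htr2a and Adra1a each kept the call in 10 of 11 alternatives and 2 of 6 fits with a mouse left out. Against WT mice, Htr2a kept it in 11 of 11 and 1 of 6, and Chrna4 in 9 of 11 and 1 of 6. Over all tested genes, 153 were called with caffeine against vehicle, 24.2% of them higher. The count was 747 (37.3% higher) with DESeq2, 587 (30.2%) with limma-voom, 987 (36.2%) without the filter and 283 (35.7%) with the GC correction. The count fell to 9 with the lane covariate, 58 without caffeine-treated replicate 2 and 3 without vehicle-treated replicate 1. It was 0 without vehicle-treated replicate 3 or caffeine-treated replicate 3, and 341 without caffeine-treated replicate 1. Against WT mice, 72 of all tested genes were called. That count was 860 without the filter, 540 with DESeq2, 125 with limma-voom, 42 with the lane and 64 with the exon length correction. It was 287 without caffeine-treated replicate 1 and 16 to 59 without any of the other libraries. No paired analysis was possible because the labels give no replicate numbers, and those used here follow the order of deposit and only name the libraries. With 3 libraries per group, genes such as Chrnb3 and Chrm5 had standard errors over 0.5, and small differences in them could not be seen.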

Other observations

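Several receptor genes below the filter on low counts were highest in the same 2 libraries, those of replicate 2 in both Tg4-42 groups. Drd2, the Gi-coupled dopamine receptor, had 9, 7 and 9 counts in WT mice, 3, 29 and 8 counts in vehicle-treated and 6, 18 and 4 counts in caffeine-treated Tg4-42 mice. Adra2b, a Gi-coupled adrenergic receptor, had 24 and 17 counts in those 2 libraries and 1 to 6 counts in the other 7. Chrne, the adult subunit of the muscle receptor, had 14 and 11 counts there and 1 or 2 counts elsewhere. Chrna10 had 20 and 8 counts there and at most 3 counts elsewhere, and 39.0% of its exon length overlaps Art1 on the opposite strand. These genes were picked after their counts were seen, and nothing was tested on them.

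Other low genes were uneven in a different way. Chrna6, a subunit known from dopamine neurons, had 9, 4 and 19 counts in WT mice, 6, 11 and 25 counts in vehicle-treated and 1, 4 and 6 counts in caffeine-treated Tg4-42 mice. Htr1d, a Gi-coupled serotonin receptor, had 2, 6 and 5 counts in WT mice, 3, 13 and 17 counts in vehicle-treated and 3, 0 and 1 counts in caffeine-treated Tg4-42 mice. Both were called lower against vehicle-treated Tg4-42 mice in the fit without the filter, which is not the fit used for the comparisons above.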
